A study of Mus musculus with 37 samples.

Results

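The transcripts described here are 10 genes of the mouse mitochondrial chromosome: mt-Co1, mt-Co2, mt-Co3, mt-Cytb, mt-Nd1, mt-Nd2, mt-Nd4, mt-Nd5, mt-Atp6 and mt-Rnr2. They were taken by gene symbol, 10 of 19033 genes listed for GV oocytes and 10 of 24305 listed for 2-cell embryos. The same tables list 15 mitochondrially encoded genes, and the 10 were chosen on readout: they hold ranks 1 to 10 of the 15 by mean reads at both stages. Just inside that limit, mt-Nd5 had a mean of 1177 reads in the GV libraries and 19310 in the 2-cell libraries. Just outside it, mt-Rnr1 had 1137 and 8377. The genes were therefore abundant by choice, and their abundance is given as a description.

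RNA-seq was available for 16 CabZ libraries of C57BL/6 background: 4 CabZ Het and 4 CabZ KO libraries of germinal vesicle (GV) oocytes, and 4 CabZ Het and 4 CabZ KO libraries of 2-cell embryos. In CabZ mice, floxed Cabin1 is cut by Cre under the Zp3 promoter, which is active in growing oocytes, so that the gene is lost from a single allele in Het oocytes and from both in KO oocytes. Het and KO thus share the Cre and a deleted allele, and no wild-type CabZ library was used. Whether the CabZ 2-cell embryos were fertilised or parthenogenetic is not stated in the sources used here. At that stage Het and KO therefore name the genotype of the oocyte. Cabin1 is a subunit of the Hira complex, the chaperone that deposits histone H3.3. The study's methods describe pooled oocytes for each library while the labels speak of individual cells, and neither says which females gave which library, so p-values measure the spread between libraries. The comparisons ask how maternal loss of Cabin1 and the passage from oocyte to embryo go with the level of these transcripts.

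As background, the mitochondrial chromosome encodes core subunits of the respiratory chain, both mitochondrial ribosomal RNAs and a set of transfer RNAs. Both strands are transcribed by Polrmt with Tfam and Tfb2m into long precursors, from which transfer RNAs are cut out to release messenger and ribosomal RNAs. Most mitochondrial messenger RNAs are then polyadenylated by Mtpap, and Lrpprc with Slirp protects them. The egg supplies the mitochondria of the embryo.

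All 10 genes lie on the plus strand of chromosome M (GRCm38) and have no introns. In order they are mt-Rnr2 (chrM:1094-2675), mt-Nd1 (chrM:2751-3707), mt-Nd2 (chrM:3914-4951), mt-Co1 (chrM:5328-6872), mt-Co2 (chrM:7013-7696), mt-Atp6 (chrM:7927-8607), mt-Co3 (chrM:8607-9390), mt-Nd4 (chrM:10167-11544), mt-Nd5 (chrM:11742-13565) and mt-Cytb (chrM:14145-15288). Of these, 9 are protein coding and mt-Rnr2 is the 16S ribosomal RNA gene. Their lengths range from 681 bases (mt-Atp6) to 1824 bases (mt-Nd5). The 3′ ends of 6 of them follow, since these are the genes with the lowest and the highest KO to Het ratios among the messenger RNAs of the 2-cell embryos. The capitals mark the stop codon as encoded, which in 3 of them is a lone T that polyadenylation completes, according to the RefSeq annotation of GRCm38.

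mt-Cytb (chrM:15259-15288): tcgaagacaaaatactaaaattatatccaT
mt-Nd4 (chrM:11515-11544): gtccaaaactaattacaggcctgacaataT
mt-Nd5 (chrM:13536-13565): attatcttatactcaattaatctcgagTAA
mt-Co1 (chrM:6843-6872): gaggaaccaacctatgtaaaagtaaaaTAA
mt-Co2 (chrM:7667-7696): ttcgaaaactgatctgcttcaataattTAA
mt-Co3 (chrM:9361-9390): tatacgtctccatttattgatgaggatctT

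Genes with a complete and with an incomplete encoded stop codon stood at both ends of that order, mt-Nd5 and mt-Nd4 at the low end and mt-Co2 and mt-Co3 at the high end. The A content of the 10 genes ranged from 29.5% (mt-Co1) to 38.2% (mt-Rnr2), and their longest run of A from 4 bases in mt-Co2 to 8 bases in mt-Nd2.

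A near-identical nuclear copy limits what a read can say about 5 of the 10 genes. An insertion of mitochondrial sequence on the minus strand of chromosome 1 matched 8 mitochondrial genes between chr1:24611535 and chr1:24616188, with 99.8% to 100% identity over matches of at least 100 bases. mt-Co2, mt-Atp6 and mt-Co3 matched it over their whole length without a difference, mt-Nd4 matched over 63.6% of its length and mt-Co1 over 31.3%. mt-Rnr2, mt-Nd1, mt-Nd2, mt-Nd5 and mt-Cytb had no match there. Of these, all but mt-Nd1 had less alike matches on other nuclear chromosomes. Examples are mt-Cytb on chromosome 4 (1143 bases, 92.9% identity) and mt-Nd5 on chromosome 13 (955 bases, 95.2%). mt-Nd2 matched on chromosome 2 (511 bases, 96.7%) and mt-Rnr2 on chromosome 10 (370 bases, 97.8%). Whether reads were lost to these copies was not tested. The start of mt-Atp6 and of its copy Gm10925 are shown because no base tells them apart, and the start codon is in capitals.

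mt-Atp6 (chrM:7927-7956, plus strand): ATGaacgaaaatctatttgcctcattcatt
Gm10925 (chr1:24614622-24614651, minus strand): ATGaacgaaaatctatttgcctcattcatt

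The only difference among the chromosome 1 matches of mt-Co1, mt-Co2, mt-Co3, mt-Atp6 and mt-Nd4 was A1066T, between mt-Co1 and its copy Gm29216. Its position is counted from the first base of mt-Co1. The differing base is in capitals.

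mt-Co1 (chrM:6390-6419, plus strand): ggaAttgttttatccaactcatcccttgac
Gm29216 (chr1:24616159-24616188, minus strand): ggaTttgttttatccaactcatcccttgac

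In the tables both copies carry values. Gm10925 stood at a median of 0.622 times the FPKM of mt-Atp6 in the Het GV libraries and 0.714 times in the Het 2-cell libraries, and Gm28437 at 1.18 and 1.06 times the FPKM of mt-Co3. Reads of an identical copy cannot be told apart, so the values of mt-Atp6, mt-Co2 and mt-Co3, and in part mt-Nd4 and mt-Co1, depend on how the counting divided them. mt-Atp6 also shares 43 bases with mt-Atp8 and mt-Nd4 shares 7 with mt-Nd4l. mt-Nd5 shares 14 bases with mt-Nd6 on the other strand, and no source used here says that strand was counted.

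Reads in the tables numbered 9113384 to 12465791 per GV library and 5818583 to 8237372 per 2-cell library, and at each stage every KO library was shallower than every Het library. The targeted gene was lower in each KO library. Cabin1 measured 0.119 ± 0.0312 FPKM in Het and 0.0242 ± 0.0167 FPKM in KO GV oocytes (SD, n = 4 each; exact two-sided permutation test, p = 0.0286, the smallest that 4 against 4 libraries allow). In 2-cell embryos it measured 0.322 ± 0.0978 and 0.134 ± 0.0497 FPKM (SD, n = 4 each; exact two-sided permutation test, p = 0.0286). FPKM here means reads scaled to the gene's span in kilobases and to the reads in the table, so genes with introns read low and are not compared in level with the mitochondrial genes. All 12 oocyte markers were listed at both stages. In GV oocytes they summed to 4668 to 5388 FPKM in Het and 4273 to 4406 FPKM in KO, without overlap. In 2-cell embryos they summed to 146 to 226 FPKM in Het and 424 to 1003 FPKM in KO. Of 14 cumulus and granulosa markers, at most 12 were listed, and they summed to no more than 6.18 FPKM in any library.

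In Het GV oocytes mt-Cytb, which encodes cytochrome b of complex III, was the most abundant of the 10 at 848 ± 132 FPKM (SD, n = 4). mt-Atp6, the proton channel subunit of ATP synthase, followed at 646 ± 90.2 FPKM and was lower than mt-Cytb in 4 of 4 libraries. mt-Co1 (470.1 FPKM), mt-Co3 (468 FPKM) and mt-Rnr2 (421 FPKM) did not keep an order among themselves: mt-Co1 exceeded mt-Co3 in 2 of 4 libraries, and mt-Co3 exceeded mt-Rnr2 in 2 of 4. The libraries were made from captured mRNA. How fully they took up mt-Rnr2, a ribosomal RNA, was not tested, so its place need not be one by amount. mt-Co2 (335 FPKM) and mt-Nd1 (316 FPKM) were also close, in the order given in 3 of 4 libraries. mt-Nd2 (149 FPKM), mt-Nd4 (123 FPKM) and mt-Nd5 (87.5 FPKM) closed the order in all 4 libraries. Het 2-cell embryos kept mt-Cytb and mt-Atp6 on top and mt-Nd2, mt-Nd4 and mt-Nd5 at the bottom, although mt-Nd2 was under mt-Co3 in only 3 of 4 libraries, and mt-Nd1 stood above the mt-Co genes in 4 of 4. Across the 10 genes, the Het levels at GV and 2-cell had a Spearman rho of 0.794 on FPKM and a Pearson r of 0.810 on log2 FPKM, a description over genes of shared libraries.

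**Figure D1:**
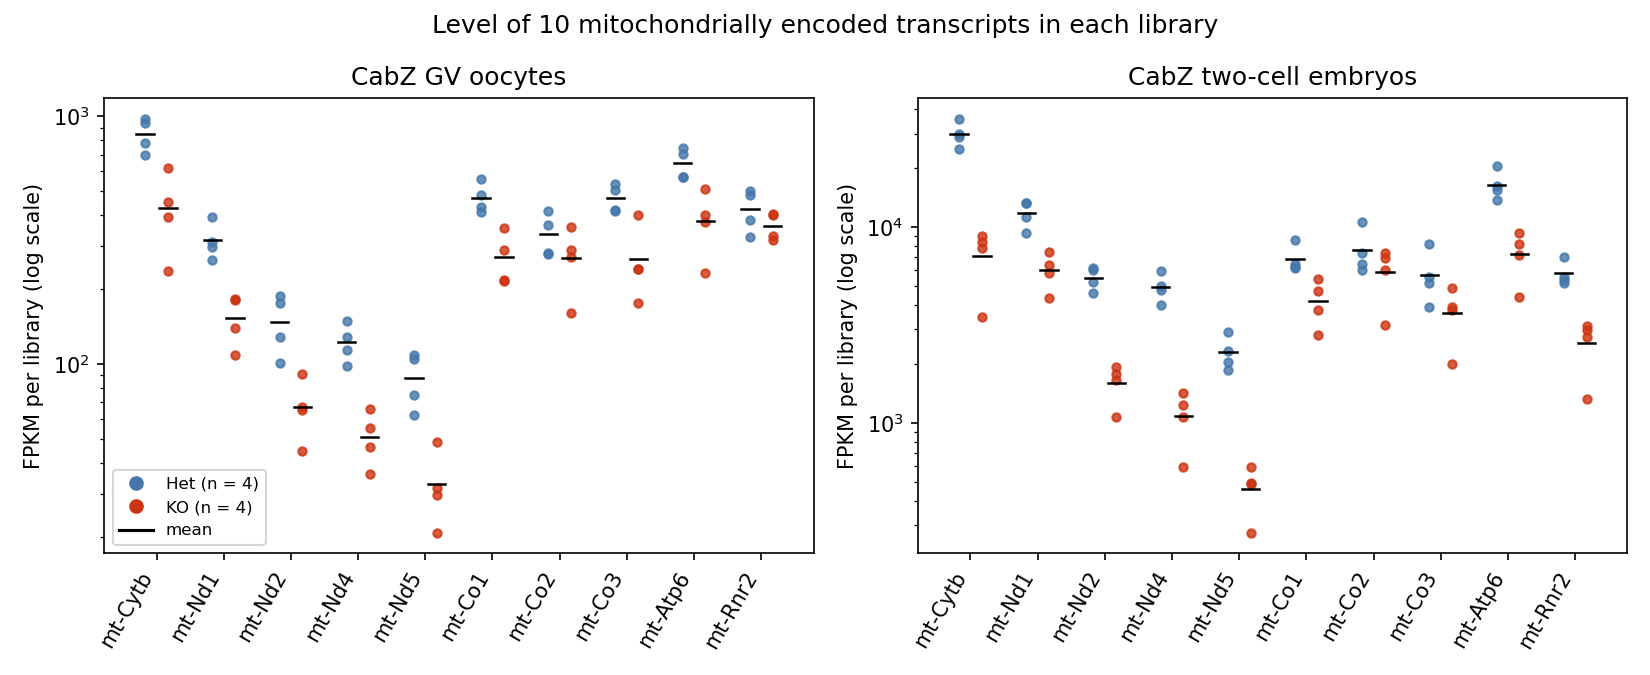
Level of each of the 10 transcripts in every CabZ library, in FPKM on a log axis, for GV oocytes (left) and 2-cell embryos (right). Points are libraries, 4 Het in blue and 4 KO in red, and short lines are group means; the KO points lie under all Het points for 8 of the 10 genes at each stage.

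In GV oocytes the mitochondrial transcripts were lower in CabZ KO than in CabZ Het. All 10 had a lower KO mean, and 8 of 10 passed the test as lower (limma over 6339 genes, Benjamini-Hochberg adjusted p under 0.05), where 5.73% of all genes tested did. With the added requirement of a change above 2-fold, 5 of 10 were called, against 0.836% of all genes. The KO libraries lay wholly under the Het libraries for 8 of 10, against 9.39% of all genes. The median log2 fold change of the 10, on log2(FPKM + 1), was -0.97, beside -0.02 over all genes tested. All 10 passed the filter on low values in both groups, at 32.7 FPKM or more. The list was drawn up with results of these data known, so these counts describe it and are not independent evidence of its direction. The markers of 2-cell embryos moved with the comparison: they summed to 147 to 163 FPKM in Het and 220 to 292 FPKM in KO GV oocytes. Of 5 tested, 3 were higher in KO (Zscan4d, Tcstv3 and Tcstv1), where 8.2% of all genes were, and their part in the result was not tested.

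The 4 subunits of complex I, which takes electrons from NADH, all fell by more than 2-fold on the log2(FPKM + 1) scale. mt-Nd5 measured 62.3, 74.8, 108 and 104 FPKM in Het replicates 1 to 4 and 31.7, 20.9, 29.6 and 48.7 FPKM in the KO replicates. The highest KO library was under the lowest Het library, and mt-Nd5 fell by 1.42 on the log2 scale (SE 0.25, limma adjusted p = 0.0056). mt-Nd4 measured 98.2, 114, 128 and 149.6 FPKM in Het and 55.0, 35.9, 46.5 and 66.1 FPKM in KO. Again no libraries overlapped, and the log2 fold change was -1.27 (SE 0.19, limma adjusted p = 0.0024). mt-Nd2 changed by -1.14 (SE 0.24, limma adjusted p = 0.013), from 101 to 187 FPKM in Het to 44.4 to 91.2 FPKM in KO. mt-Nd1 changed by -1.06 (SE 0.19, limma adjusted p = 0.0050), from 263 to 392 FPKM in Het to 109 to 182 FPKM in KO.

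mt-Cytb measured 696, 780.3, 978 and 936 FPKM in Het GV oocytes and 452, 237, 393 and 621 FPKM in KO. The groups did not overlap, KO replicate 2 being lowest, and the log2 fold change was -1.06 (SE 0.26, limma adjusted p = 0.022). Among the catalytic subunits of cytochrome c oxidase, mt-Co1 fell by 0.82 (SE 0.17, limma adjusted p = 0.012) and mt-Co3 by 0.88 (SE 0.22, limma adjusted p = 0.025) on the log2 scale, neither with overlapping libraries. mt-Co2, the third of them, did not pass the test. It measured 282, 278, 415 and 365 FPKM in Het and 270.3, 161, 288 and 356 FPKM in KO, and 2 KO libraries lay above the lowest Het library (log2 fold change -0.35, SE 0.23, limma adjusted p = 0.37). mt-Atp6 fell by 0.81 (SE 0.22, limma adjusted p = 0.033), from 569 to 743 FPKM in Het to 233 to 507 FPKM in KO. mt-Rnr2 measured 497, 481, 327 and 380.5 FPKM in Het and 328, 316, 404 and 401 FPKM in KO, values that overlapped (log2 fold change -0.21, SE 0.16, limma adjusted p = 0.45).

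The GV calls of 3 genes depended on single libraries. mt-Cytb missed the threshold without Het replicate 3 or Het replicate 4 (adjusted p = 0.059 each). mt-Co3 missed it without Het replicate 3 (0.064), Het replicate 4 (0.072), KO replicate 1 (0.054), KO replicate 2 (0.052) or KO replicate 3 (0.055). mt-Atp6 missed it without Het replicate 1 (0.057), 2 (0.052), 3 (0.079) or 4 (0.091) or KO replicate 1 (0.058). With each library left out in turn, the number called ranged from 5 to 8, and every member kept a lower KO mean. Without the filter on low values, 4 of 10 were called.

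In 2-cell embryos the transcripts were again lower in KO, at this scaling by more on the log2 scale than in GV oocytes for 7 of the 10 and by less for mt-Nd1, mt-Co1 and mt-Co3, a difference between stages that was not tested. All 10 means were lower in KO and 8 of 10 passed the test as lower (limma over 7798 genes, adjusted p under 0.05), but at this stage 30.9% of all genes tested did so. Above 2-fold, 6 of 10 were called, against 20.4% of all genes, and the KO libraries lay wholly under the Het libraries for 8 of 10, against 28.1%. The median log2 fold change of the 10 was -1.23, beside -0.11 over all genes. Scaling matters more here than in GV oocytes. Of the genes called above 2-fold, 45.3% were higher in KO, against 60.9% with libraries scaled to a common median and 74.4% with the values as deposited, and the median over all genes moved to 0.13 and 0.19. The median of the 10 was then -0.995 and -0.604, and 7 and 4 of them were called. mt-Co2 turned to 0.22 with the values as deposited, while the other 9 stayed lower.

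The genes at the low end were the same complex I subunits and cytochrome b. mt-Nd5 measured 2925, 1859, 2033 and 2334 FPKM in Het replicates 1 to 4 and 592, 489.6, 488 and 274 FPKM in KO. No KO library came near the lowest Het library, and the log2 fold change was -2.34 (SE 0.26, limma adjusted p = 0.00024). mt-Nd4 measured 5939, 4011, 4978 and 4762 FPKM in Het and 1421, 1230.0, 1064 and 593 FPKM in KO, with a log2 fold change of -2.25 (SE 0.28, limma adjusted p = 0.00032). mt-Cytb measured 35803, 25150.3, 29742 and 28937 FPKM in Het and 8975, 7804, 8394 and 3451 FPKM in KO. The lowest mt-Cytb library was KO replicate 4, and the log2 fold change was -2.14 (SE 0.31, limma adjusted p = 0.00054). mt-Nd2 changed by -1.81 (SE 0.22, limma adjusted p = 0.00031), from 4611 to 6186 FPKM in Het to 1070.1 to 1932 FPKM in KO. mt-Nd1, also a complex I subunit, changed less, by -0.98 (SE 0.22, limma adjusted p = 0.0042), from 9327 to 13255 FPKM in Het to 4330.3 to 7427 FPKM in KO.

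mt-Rnr2 measured 7055, 5576, 5205 and 5374 FPKM in Het 2-cell embryos and 2758, 3138, 2976 and 1329 FPKM in KO, and fell by 1.25 on the log2 scale (SE 0.28, limma adjusted p = 0.0049). mt-Rnr2 passed the test in 2-cell embryos and not in GV oocytes, and the difference between the stages was not tested, since the tables were normalized separately. mt-Atp6 fell by 1.22 (SE 0.26, limma adjusted p = 0.0033), from 13746 to 20565 FPKM in Het to 4393 to 9334 FPKM in KO. mt-Co1 fell by 0.75 (SE 0.24, limma adjusted p = 0.022). mt-Co3 measured 8164, 5161, 3904 and 5541 FPKM in Het and 3912, 4877, 3768 and 2000.0 FPKM in KO and did not pass (log2 fold change -0.67, SE 0.32, limma adjusted p = 0.0996). mt-Co2 measured 10675, 6002, 6485 and 7345 FPKM in Het and 7352, 6973, 6037 and 3151 FPKM in KO, with 3 of 4 KO libraries inside the Het range (log2 fold change -0.41, SE 0.30, limma adjusted p = 0.28).

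KO replicate 4 was the lowest KO library for all 10 genes. Without it 8 of 10 were still called and the median log2 fold change was -0.979. The call of mt-Co1 was lost without Het replicate 1 or KO replicate 3 (adjusted p = 0.053 each) and with libraries scaled to a common median (0.096). The oocyte markers moved with the comparison: 10 of the 11 tested were higher in KO 2-cell embryos, where 25.2% of all genes were, with a median log2 fold change of 1.46, and their part in the result was not tested. Of the 10 embryo markers tested, Tcstv1 and Usp17la were higher and Eif1a and Sp110 lower, Usp17la being named after its values were seen. FPKM is relative to the other reads of a library and gives no amount of RNA per embryo. In bulk libraries, fewer mitochondria, less RNA in each and more of other RNA cannot be told apart. How fully the capture of mRNA took up each of the 10 transcripts in Het and in KO was not tested either.

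Over the 10 genes together, the share of a library's reads was 0.376%, 0.390%, 0.460% and 0.447% in the Het GV replicates and 0.249%, 0.175%, 0.241% and 0.324% in KO. In 2-cell embryos it was 12.6%, 8.74%, 9.99% and 9.86% in Het and 4.68%, 4.87%, 4.17% and 2.37% in KO. The means were 0.418% ± 0.0415 and 0.247% ± 0.0610 in GV oocytes, and 10.3% ± 1.62 and 4.02% ± 1.14 in 2-cell embryos (SD, n = 4 each). No KO library reached a Het library of its stage. With the 7 genes of the chromosome 1 insertion added, the 2-cell means were 12.1% in Het and 5.05% in KO. The sums carry no test, since the genes were chosen for abundance.

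**Figure D2:**
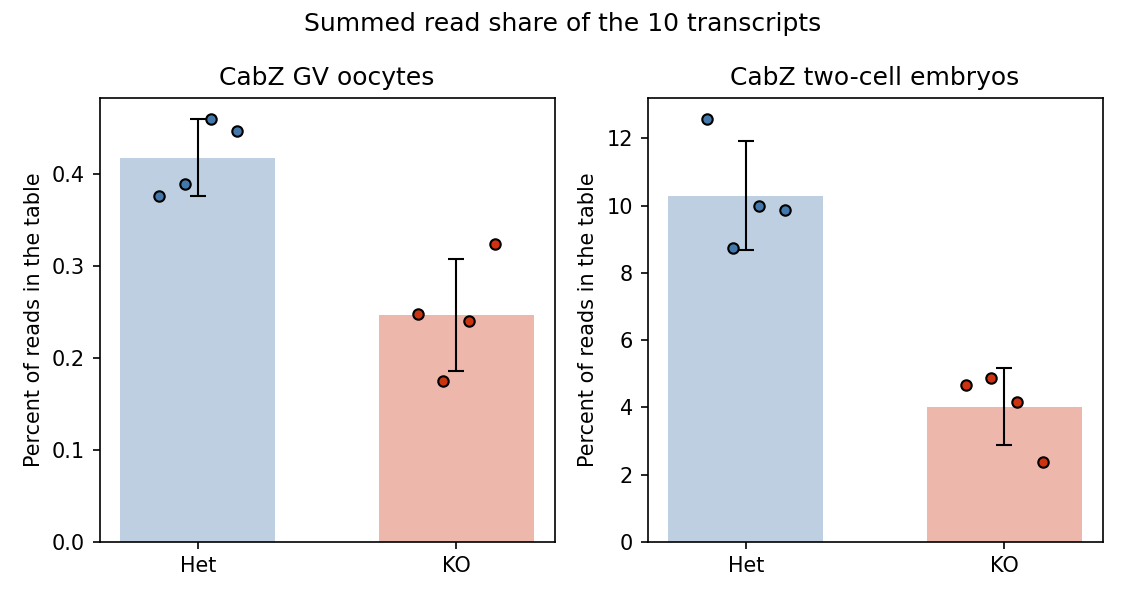
Percent of the reads in the table that lie on the 10 transcripts, for GV oocytes (left) and 2-cell embryos (right), each on its own axis from 0. Bars are means of 4 libraries, error bars SD and points libraries; the KO points lie under the Het points at both stages.

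The transcripts did not fall by the same factor, and the makeup of the mitochondrial RNA therefore differed between the genotypes. Shares of the summed FPKM of the 10 do not depend on how libraries are scaled to each other. mt-Cytb made up 30.1% to 31.6% of the sum in Het 2-cell embryos and 14.7% to 20.4% in KO. mt-Co2 made up 6.90% to 8.96% in Het and 13.5% to 15.9% in KO. mt-Co1, mt-Co3 and mt-Atp6 also had a larger share in every KO library than in any Het library. Like mt-Co2, these genes have copies on chromosome 1, and their shares depend on how the counting divided the reads. The ratio of Gm10925 to mt-Atp6 was itself 0.680 to 0.748 in Het and 0.601 to 0.675 in KO 2-cell embryos. Shares with the reads of the copies joined were not computed. Gm10925 had a larger fall than mt-Atp6 in 2-cell embryos (log2 fold changes -1.35 and -1.22), so mt-Atp6 may not keep its larger share. The other copies did not fall further than their sources: Gm28661 -0.40 and mt-Co2 -0.41, Gm28437 -0.53 and mt-Co3 -0.67, Gm29216 -0.54 and mt-Co1 -0.75. mt-Nd2, mt-Nd4 and mt-Nd5 had a smaller share in every KO library, mt-Nd4 with 4.91% to 5.29% in Het and 2.53% to 3.07% in KO. mt-Nd1 and mt-Rnr2 overlapped between genotypes.

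In GV oocytes 3 of the 10 shares did not overlap. mt-Nd4 and mt-Nd5 had smaller shares in KO, at 2.08% to 2.40% against 2.87% to 3.58% and at 1.33% to 1.61% against 1.82% to 2.52%. mt-Co2 had the larger share, at 10.4% to 12.9% in KO and 7.84% to 9.64% in Het. Ratios of genes within a library show the same spread. The ratio of mt-Nd5 to mt-Co2 in FPKM was 0.221 to 0.286 in Het and 0.103 to 0.137 in KO GV oocytes, and 0.274 to 0.318 in Het and 0.0702 to 0.0871 in KO 2-cell embryos. Across the 10 genes, the log2 fold changes at GV and at 2-cell had a Spearman rho of 0.721 and a Pearson r of 0.695, a description over genes that are not independent.

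**Figure D3:**
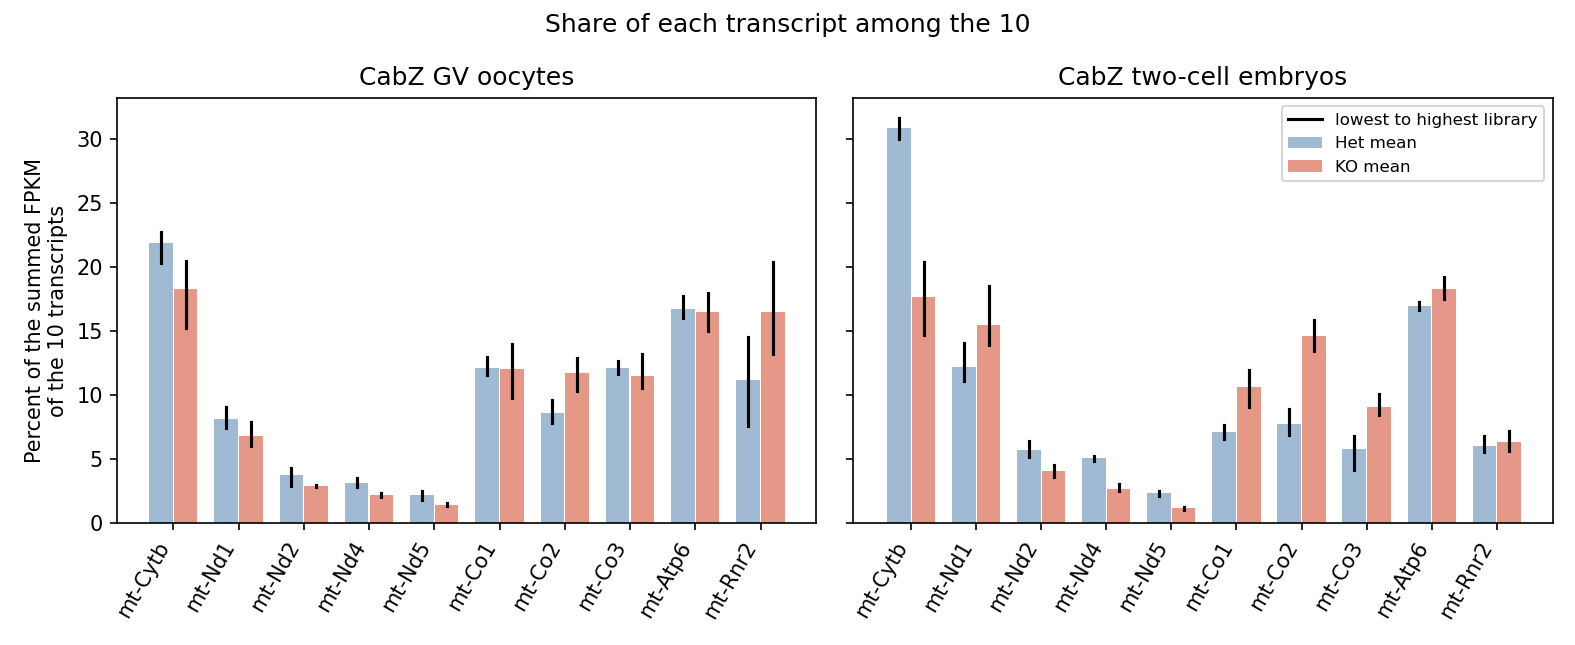
Share of each transcript in the summed FPKM of the 10, in percent, for GV oocytes (left) and 2-cell embryos (right). Bars are means of 4 Het (blue) or 4 KO (red) libraries and black lines run from the lowest to the highest library; mt-Cytb drops from 30.9% in Het to 17.7% in KO 2-cell embryos while mt-Co2 rises from 7.78% to 14.6%.

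The 5 mitochondrial genes outside the 10 gave the following. In GV oocytes mt-Atp8 was called lower (log2 fold change -0.95, SE 0.27, limma adjusted p = 0.042). mt-Nd6, the gene on the minus strand, missed the threshold (-1.17, SE 0.35, limma adjusted p = 0.055), as did mt-Nd3 (-0.51, adjusted p = 0.54) and mt-Nd4l (-0.87, adjusted p = 0.44), which had as few as 1.86 restored reads in a library. mt-Rnr1, the 12S ribosomal RNA of the small subunit, had a higher KO mean, 124 ± 18.8 against 107 ± 19.4 FPKM (SD, n = 4), which did not pass (limma adjusted p = 0.41). In 2-cell embryos mt-Nd4l (-2.21, SE 0.38, limma adjusted p = 0.0012), mt-Nd6 (-2.04, SE 0.27, limma adjusted p = 0.00040) and mt-Atp8 (-1.15, SE 0.22, limma adjusted p = 0.0020) were called lower. mt-Nd3 (-0.64, adjusted p = 0.065) and mt-Rnr1 (-0.24, adjusted p = 0.46) were not. The kit keeps no strand, so reads of the opposite strand cannot be told apart from those of mt-Nd6. The ribosomal RNAs parted in 2-cell embryos: mt-Rnr2 stood at 4.29 to 4.54 times the FPKM of mt-Rnr1 in Het and at 1.92 to 2.85 times in KO. How fully the capture of mRNA took up either was not tested.

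Set in order along the chromosome, the last 5 genes, from mt-Nd4l to mt-Cytb, had log2 fold changes between -2.34 and -2.04 in 2-cell embryos. The first 10, from mt-Rnr1 to mt-Nd3, lay between -1.81 and -0.24, with a median of -0.87. In GV oocytes the last 5 lay between -1.42 and -0.87 and the first 10 between -1.14 and 0.22. The Spearman rho between place in the order and log2 fold change was -0.618 over the 15 genes at both stages, and over the 10 it was -0.552 in GV oocytes and -0.430 in 2-cell embryos. The division after mt-Nd3 was chosen after the values were seen, and no test was made of it.

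**Figure D4:**
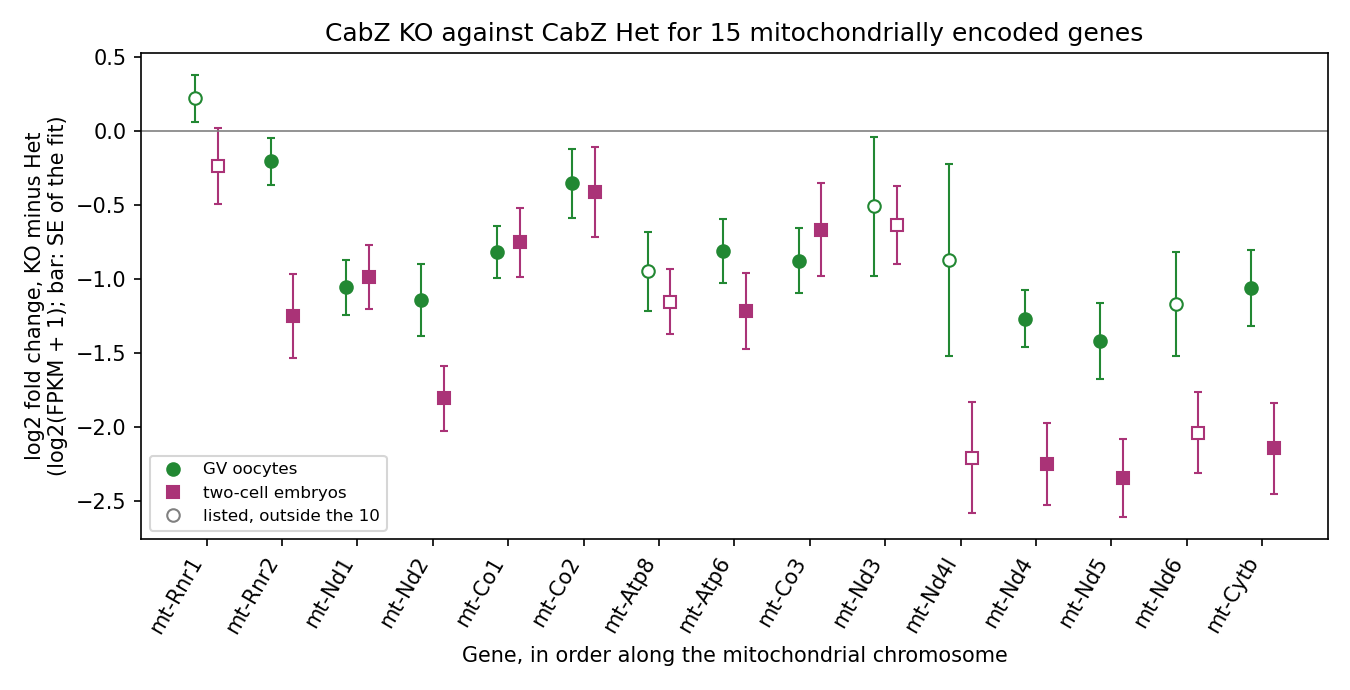
Log2 fold change of KO over Het, on log2(FPKM + 1), for the 15 mitochondrially encoded genes in order along the chromosome, in GV oocytes (circles) and 2-cell embryos (squares), with the SE of the fit. Filled symbols are the 10 transcripts; in 2-cell embryos the 5 genes on the right lie at -2.04 or lower.

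From the GV oocyte to the 2-cell embryo all 10 transcripts rose in FPKM. The stages are set side by side without a test, because the tables list different genes and were scaled separately. FPKM is relative to the other reads of a library, so these rises do not give RNA per oocyte or embryo. Whether the capture of mRNA took up these transcripts equally at both stages was not tested. In Het, every 2-cell library exceeded every GV library for 10 of 10 genes, where 33.9% of 7001 genes of both tables did so, and in KO for 10 of 10, where 31.2% did. In Het the mean FPKM rose least for mt-Co3, 12.2-fold from 468 to 5692, and most for mt-Nd4, 40.2-fold from 123 to 4922. mt-Cytb rose 35.3-fold, mt-Nd1 37.3-fold and mt-Nd2 37.2-fold, whereas mt-Co1 rose 14.6-fold and mt-Rnr2 13.8-fold. mt-Atp6, mt-Nd5 and mt-Co2 lay between, at 25.5-fold, 26.1-fold and 22.8-fold. The log2 differences had a median of 4.69 in Het and 4.16 in KO, beside -0.09 and -0.12 over all genes.

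The rise in KO embryos was smaller than in Het for some genes and near it or somewhat larger for others. mt-Cytb rose 16.8-fold in KO, from 426 to 7156 FPKM, and mt-Nd4 21.2-fold, from 50.9 to 1077 FPKM. mt-Rnr2 had the smallest KO rise, 7.04-fold, from 362 to 2550.4 FPKM. For mt-Nd1, at 39.2-fold, and mt-Co2, at 21.9-fold, the KO rise was near the Het rise. mt-Co1 rose 15.5-fold in KO and 14.6-fold in Het, and mt-Co3 rose 13.8-fold in KO and 12.2-fold in Het. Scaling both tables to the reads of the 17958 genes they share, with or without the 10, left the order of these medians, which were then 4.72 or 4.87 in Het and 4.19 or 4.24 in KO.

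The 7 genes annotated on the chromosome 1 insertion are also listed in the other 2 RNA-seq tables, which list none of the 15 mitochondrial genes. Nuclear copies on other chromosomes were not looked for there. The 2 tables compare 4 ZH Het with 4 ZH KO libraries of GV oocytes, in which Zp3-Cre deletes Hira, and 4 GFP with 3 Zscan4 overexpression (OE) libraries of parthenogenetic 2-cell embryos. Hira itself was listed at no more than 0.0117 FPKM in any ZH library, so it gave no check of those labels. These comparisons were added after the data were seen, and a copy's value cannot be told apart from that of its mitochondrial source. In GV oocytes of CabZ, Gm10222 (matching mt-Nd4l), Gm10925 (mt-Atp6), Gm28437 (mt-Co3) and Gm28438 (mt-Nd3) were called lower in KO, by 1.38, 0.90, 0.85 and 0.82 on the log2 scale. That is 4 of 7, where 5.73% of all genes were called lower. In CabZ 2-cell embryos 5 of 7 were called, where 30.9% of all genes were, Gm28437 and Gm28661 (mt-Co2) being the exceptions, and Gm28439, matching mt-Nd4, fell by 2.03 (SE 0.22, limma adjusted p = 0.00022).

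In ZH GV oocytes 5 of the 7 copies were called lower in KO (limma over 5792 genes, adjusted p under 0.05), where 26.3% of all genes tested were. Gm28439 measured 13.8, 22.0, 33.7 and 31.2 FPKM in Het and 7.17, 4.12, 10.3 and 8.29 FPKM in KO (log2 fold change -1.61, SE 0.31, limma adjusted p = 0.0022). Gm10925 measured 189, 302, 395 and 319.9 FPKM in Het and 138, 65.1, 139 and 177 FPKM in KO (-1.25, SE 0.32, limma adjusted p = 0.0089). The groups did not overlap for either. Gm10222 (-1.50), Gm28437 (-1.25) and Gm29216 (-0.92) were also called, whereas Gm28438 (-0.46, adjusted p = 0.27) and Gm28661 (-0.82, adjusted p = 0.084) were not. The call of Gm29216 was lost without Het replicate 3 (0.050) or Het replicate 4 (0.056), with libraries scaled to the reads of the table (0.051) and without the filter on low values (0.081). Gm28661 was called without KO replicate 4 (-1.10, adjusted p = 0.029) and with libraries scaled to a common median (-0.97, adjusted p = 0.038).

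In Zscan4 OE embryos all 7 copies had lower means than in GFP embryos, with log2 fold changes of -1.04 to -0.54, and none passed the test (limma over 4293 genes, adjusted p from 0.0999 to 0.31). The adjusted test called 1.7% of all genes lower. At an unadjusted p under 0.05, 6 of the 7 were lower, where 11.4% of all genes were. Gm10925 measured 5398, 7858, 5904 and 6854 FPKM in GFP and 4593, 2707 and 3763 FPKM in OE, without overlap. OE replicate B was lowest for 7 of 7.

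**Figure D5:**
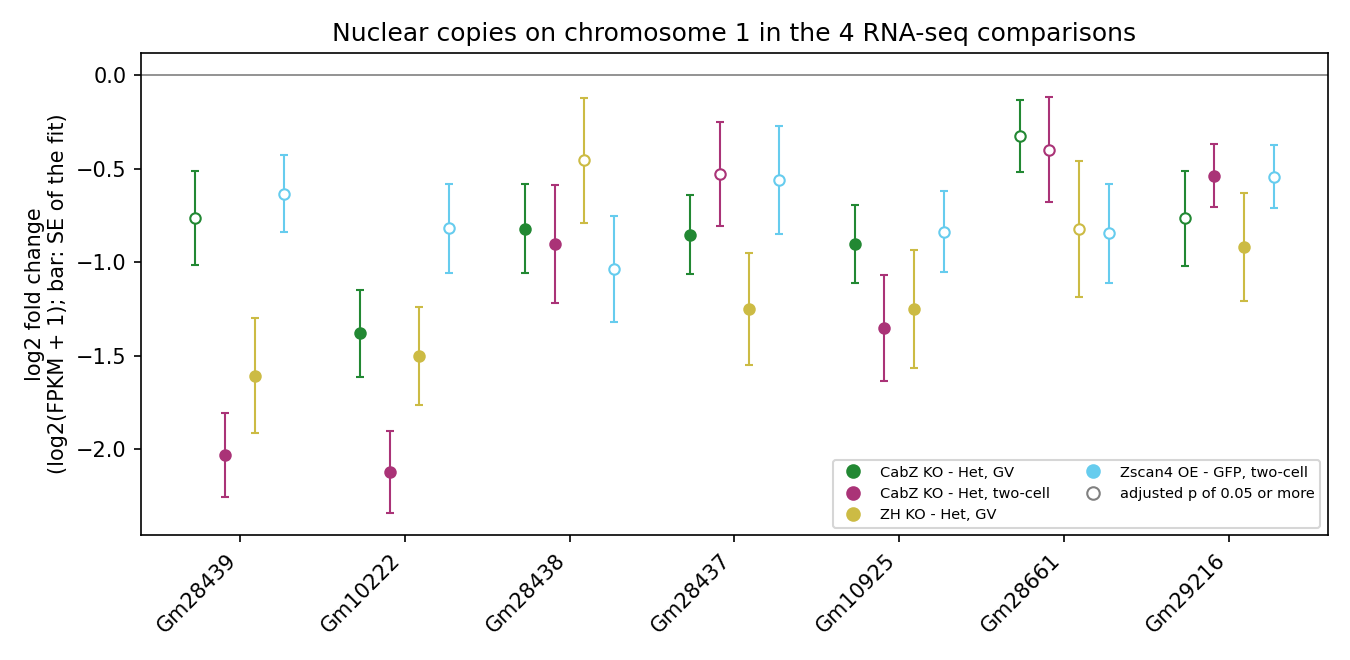
Log2 fold change, on log2(FPKM + 1), of the 7 genes of the chromosome 1 insertion in the 4 RNA-seq comparisons (colours), with the SE of the fit; open circles have an adjusted p of 0.05 or more. All 28 points lie below 0, and 14 of them are filled.

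Nuclear genes that serve these transcripts were described from fixed lists. Of 37 genes of mitochondrial transcription and DNA maintenance, 20 were tested in GV oocytes. At an adjusted p under 0.05, 2 were lower and 1 was higher, beside 5.73% and 8.2% of all genes. The lower genes, named after their values were seen, were Tfb1m (-0.51), a ribosomal RNA methyltransferase, and Endog (-0.53), a mitochondrial nuclease. Tfam, the packaging and transcription factor of mitochondrial DNA, was the higher gene, at 0.947 ± 0.0892 FPKM in Het and 2.08 ± 0.490 FPKM in KO (SD, n = 4; log2 fold change 0.65, SE 0.13, limma adjusted p = 0.0084). The Het mean of Tfam lay under the filter of 1 FPKM, so it entered the test only through its KO libraries, and its call is a description. Polrmt, the mitochondrial RNA polymerase, had 2.73 ± 0.555 and 4.63 ± 1.25 FPKM and did not pass (log2 fold change 0.58, limma adjusted p = 0.059). In 2-cell embryos 17 were tested, 9 lower and 2 higher, beside 30.9% and 25.2% of all genes, with a median of -0.62 beside -0.11. The named lower genes were Mrpl12 (-2.17), a ribosomal protein also tied to Polrmt, Ssbp1 (-1.86), which binds single-stranded mitochondrial DNA, Gabpa (-1.81), a nuclear regulator of respiratory genes, Tfb2m (-1.25), the initiation factor, and Tefm (-1.08), the elongation factor. Tfam was at 3.17 ± 1.71 FPKM in Het and 1.49 ± 0.280 FPKM in KO (limma adjusted p = 0.16), and Polrmt at 0.497 and 0.288 FPKM was too low to test.

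Of 44 genes of mitochondrial RNA processing and stability, 21 were tested in GV oocytes, 1 lower and 1 higher, beside 5.73% and 8.2% of all genes. The lower gene, Fastkd1 (-0.50), was likewise named after its values were seen. The higher gene was Hsd17b10, a subunit of mitochondrial RNase P, at 6.08 ± 1.37 FPKM in Het and 16.3 ± 2.71 FPKM in KO (SD, n = 4; log2 fold change 1.30, SE 0.16, limma adjusted p = 0.00074). In 2-cell embryos 24 were tested, 8 lower and 4 higher, beside 30.9% and 25.2% of all genes, so the share called lower was near that of all genes. Trmt10c, another RNase P subunit, was lower (-1.23, limma adjusted p = 0.0020), and Angel2 (0.81) and Nsun4 (0.94), a ribosomal RNA methyltransferase, were higher. Lrpprc was listed at 0.287 and 0.338 FPKM in Het and KO GV oocytes and was too low to test at both stages.

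Among 80 nuclear-encoded subunits of the respiratory chain, 75 were tested in GV oocytes, with 3 lower and 2 higher and a median of -0.11. Over all genes tested, 5.73% were lower and 8.2% higher, and the median was -0.02. Atp5g3 (-0.69) and Ndufa6 (-0.45) were lower, as was Ndufa13 (-0.39), named after its values were seen, and Ndufa8 (0.42) and Cox7a2l (0.40) were higher. In 2-cell embryos 69 were tested, with 30 lower and 10 higher and a median of -0.46. Ndufb7 of complex I fell by 2.25 on the log2 scale (SE 0.35, limma adjusted p = 0.00081) and Cyc1 of complex III by 2.23 (SE 0.41, limma adjusted p = 0.0017). Uqcr10 fell by 1.73, Cox7c by 1.71 and Ndufc1 by 1.68. Ndufs5 was higher by 1.68 (SE 0.26, limma adjusted p = 0.00074). The share of this list called lower in 2-cell embryos, 30 of 69, stands beside the 30.9% of all genes given above. The share called higher, 10 of 69, stands beside 25.2%, and the median of -0.46 beside -0.11.

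The genes whose pattern was most like that of the 10 were sought within each table, over its 8 libraries, by Pearson r with the log2 of the summed FPKM of the 10. In GV oocytes, among 1919 genes, they were Gm28437 (r = 0.993), Gm10925 (r = 0.967) and Gm839 (r = 0.965), a long noncoding RNA gene of chromosome 6 without a match to the 15 mitochondrial genes. In 2-cell embryos, among 2053 genes, they were Gm10925 (r = 0.997), Gm13487 (r = 0.994), a processed pseudogene of chromosome 2 without such a match, and Gm13340 (r = 0.990). Gm13340 is an unprocessed pseudogene (chr2:22588103-22589647) that matched mt-Co1 with 97.6% identity over all of its 1545 bases. These correlations include the difference between genotypes and are a description.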

How the data were processed

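Smart-seq2 libraries, made from captured mRNA and with a kit that keeps no strand, were sequenced as paired ends on a HiSeq X. The authors trimmed reads with TrimGalore, aligned them to GRCm38/mm10 with STAR (2.5.3a in the submitters' processing notes) and computed FPKM over RefSeq genes. How reads with several matches were counted is not given in the sources used here. The deposited ZH and Zscan4 tables hold FPKM, computed over the whole gene span, to which 0.01 and 0.001 had been added.

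The deposited CabZ tables hold a score, although they are described as normalized counts. After 0.01 is subtracted, low values fall on whole multiples (within 0.1 read, for 79.5% to 85.0% of low values) when multiplied by the squared gene span, and every library of a table has the same total. FPKM was restored as score times span, divided by the library's sum of score times span squared, times a constant. The whole multiples also gave the reads per library.

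Within each table, genes averaging 1 FPKM or more entered a fit with limma 3.58.1 (lmFit and eBayes, R 4.3.3) on log2(FPKM + 1), with Benjamini-Hochberg adjustment over all genes tested. Genes were called at an adjusted p under 0.05, alone or with a fold change above 2. A fold change on this scale understates the change of low genes. The fit was tested on simulated data. Alternatives changed the scaling, pseudocount, filter, trend, replicate block and the libraries included, and 1 added later joined the reads of the chromosome 1 copies to their sources. Sequences come from the RefSeq assembly of GRCm38, and gene types from GENCODE (blastn 2.17.0, at least 100 bases and 90% identity).

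The members and lists were chosen with earlier results of these data known. All 10 members are named, and of each other list at most 6 genes per stage that passed the test, by size of change, with at least 10 FPKM in 1 group, plus Cabin1, Polrmt, Tfam, Lrpprc, the other mitochondrial genes, the chromosome 1 copies and the 3 genes of nearest pattern. A few further genes are marked as named after their values were seen. The ATAC-seq files were not used, since the authors removed mitochondrial alignments.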

Additional observations from a re-analysis of the deposited data

Results flagged for a closer look

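In the 2-cell Het libraries, mt-Co1 in replicate 1 stood at 8568 FPKM, far above the other 3 libraries, which lay between 6210 and 6497 FPKM. The gap was 0.878 of the group's range. Of 44 groups of 4 libraries checked this was the only such value, where chance flags about 1 in 20 groups. The same library had the highest summed share of the 10 transcripts, 12.6% of its reads. Without it mt-Co1 fell by 0.643 on the log2 scale between Het and KO (limma adjusted p = 0.053).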

How the results depend on the processing

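In GV oocytes 184 genes were called above 2-fold and 883 at the adjusted p alone. The first count was 328 with a pseudocount of 0.1 and 109 with a filter at 5 FPKM. The second was 1399 without the filter, 466 with the filter at 5 FPKM and from 588 to 843 with each library left out, the lowest without Het replicate 1. In 2-cell embryos the counts of 2914 and 4376 fell to 1650 and 2148 with the filter at 5 FPKM, which tests fewer genes. The median log2 fold change of the 10 transcripts moved from -1.23 to -0.604 with the 2-cell values as deposited, and mt-Co2 turned to 0.22 there. A deposited value differs from FPKM by the gene's span and by a factor shared by all genes of its library. Apart from the pseudocount, such a move is therefore not particular to mt-Co2. Why that factor differed between Het and KO was not tested. With the values as deposited, mt-Rnr2 (adjusted p = 0.079), mt-Nd1 (0.092), mt-Co1 (0.61) and mt-Atp6 (0.052) missed the threshold. Joining the reads of the chromosome 1 copies to their sources, an alternative chosen after seeing the data, changed no call among the 10 at either stage.

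Same-numbered Het and KO libraries did not deviate together (correlations from -0.180 to 0.144 in GV oocytes and from -0.052 to 0.125 in 2-cell embryos), so the numbers were not taken as pairs. A replicate block gave 184 and 667 genes in GV oocytes and 2886 and 4098 in 2-cell embryos, and called 8 of the 10 transcripts at each stage. Depth did not limit the 10, which had at least 349 reads in every library. It did limit mt-Nd4l, with 1.86 restored reads in the lowest GV library.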
